A study of Mus musculus with 8 samples.

Results

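The 44 genes described here copy DNA and drive mitosis. They were taken by name from a list set by gene function. The rule used no measured value, although the list was drawn up with earlier results of these data known. They are 44 of the 21842 protein-coding genes compared (GENCODE M21, mouse genome mm10). For each gene, peaks were read in the gene body together with 5 kb upstream and 1 kb downstream, which held 119 of 152984 peaks in the WT list, 90 of 106974 in the het list and 143 of 174407 in the mutant list. Each list holds regions of open chromatin found by ATAC-seq, an assay in which the Tn5 transposase cuts and tags accessible DNA. The cells were cerebellar granule neuron progenitors (GNPs) from mouse pups at postnatal day 7, an age at which these cells divide in the external granule layer.

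The 3 groups are named by genotype at Chd7, which encodes a nucleosome remodeller. Per the study's methods WT pups were Chd7 f/f without Cre, het pups Atoh1-Cre::Chd7 f/+ and mutant pups Atoh1-Cre::Chd7 f/f, so that Cre is driven in Atoh1-expressing cells such as the granule lineage and no group has Cre with intact Chd7. The labels give the strain as C56Bl6/J. The study saw Chd7 protein left in the posterior cerebellum of Atoh1-Cre animals, for which it gives weaker recombination as a probable cause, and it did not separate pups by sex. Which list is WT and which is mutant rests on the titles of the lists, since their headers name the alignments by run number, with output folders called con and hom. There were 3 WT, 2 het and 3 mutant libraries, and the WT and mutant replicates are described as technical. Peaks had been called on the pooled libraries of each genotype, so each value below is 1 value per genotype, without replicate error, and no test between genotypes was possible.

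Before S phase the origin recognition complex, with Cdc6 and Cdt1, loads the Mcm2 to Mcm7 helicase ring onto DNA, and the kinases of G1 and S phase then let it unwind and the polymerases follow. In mitosis cyclin B with Cdk1, the Aurora and Polo kinases and the spindle checkpoint take over. Expression of the first set is classically tied to E2F factors bound at promoters, and that of the second to the DREAM and Mybl2-Foxm1 complexes at a cell cycle homology region (CHR) and to NF-Y at CCAAT boxes. In the cerebellum, GNP division is driven by Sonic hedgehog from Purkinje cells.

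Which of these letters stand in the members' promoters was read from RefSeq sequences (GRCm38.p6) of 250 bases before to 50 bases after the start site, found for 37 of the 44 members and for 10859 genes with a WT promoter peak. Missing were Ccna2, Gmnn, Pole, Ccne2, Mcm4, Aurkb and Foxm1. For E2F the words TTTCCCGC, TTTGGCGC, TTTCGCGC and TTTGCCGC were searched on both strands, of which the second and the third can overlap on opposite strands. They stood in 14 of the 37 promoters (37.8%) and in 4.16% of all promoters. The CHR word TTTGAA stood in 11 of 37 (29.7%) against 10.8% of all, and the word CCAAT in 26 (70.3%) against 38.9%. A GC box (GGGCGG), the site of Sp factors, was about as frequent in the members as elsewhere, in 27 of 37 (73.0%) against 67.0%. These matches describe letters in a window and are not evidence of binding.

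The words divided by role. Among 19 replication members (helicase, licensing, fork and nucleotide supply) 9 held an E2F word and 3 a CHR, whereas among 10 mitosis members 1 held an E2F word, Cdk1, and 7 a CHR. The same split was present in genes outside the members. Of 30 other replication genes with a sequence 8 held E2F words and 3 a CHR, and of 32 other mitosis genes 2 held E2F words and 21 a CHR. CCAAT boxes were in 9 of the 10 mitosis members and in 13 of the 19 replication members. The following stretches of 160 bases lie just before the RefSeq start site and hold no exon base of GENCODE. For Cdk1 and Cdc20, shown further on, they end 27 and 10 bases before that site. The RefSeq start can differ from the GENCODE gene start, by up to 60 bases in these genes and by 350 bases in Cdc6, whose stretch lies inside the GENCODE gene and runs past the end of its WT promoter peak. They were chosen to show E2F words, 5′ to 3′ on the strand of the gene, with E2F, CHR and CCAAT letters on either strand in capitals:
Mcm5: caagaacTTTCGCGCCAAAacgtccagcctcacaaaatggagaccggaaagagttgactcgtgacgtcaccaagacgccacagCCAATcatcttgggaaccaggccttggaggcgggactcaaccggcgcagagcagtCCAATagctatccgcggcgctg
Mcm6: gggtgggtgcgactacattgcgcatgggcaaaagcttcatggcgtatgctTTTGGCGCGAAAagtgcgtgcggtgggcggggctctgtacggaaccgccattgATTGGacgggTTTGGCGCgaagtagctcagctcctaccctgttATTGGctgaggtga
Cdc6: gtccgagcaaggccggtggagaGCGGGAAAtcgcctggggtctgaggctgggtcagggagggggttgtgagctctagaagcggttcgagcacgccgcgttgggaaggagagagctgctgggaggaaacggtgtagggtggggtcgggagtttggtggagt
Cdc25a: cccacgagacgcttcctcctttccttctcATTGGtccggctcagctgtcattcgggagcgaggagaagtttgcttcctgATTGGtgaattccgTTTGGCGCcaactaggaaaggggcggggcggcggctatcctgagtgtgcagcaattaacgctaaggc
E2f3: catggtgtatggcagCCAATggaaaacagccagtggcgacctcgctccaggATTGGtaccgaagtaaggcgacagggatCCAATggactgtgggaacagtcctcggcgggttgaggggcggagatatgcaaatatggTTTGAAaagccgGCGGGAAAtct
These lie at chr8:75109349-75109508 (plus strand), chr1:128359706-128359865 (minus), chr11:98907991-98908150 (plus), chr9:109875419-109875578 (plus) and chr13:29986064-29986223 (minus). Mcm5 and Mcm6, both helicase subunits, each held an overlapping pair of E2F words on opposite strands, and Mcm6 held another E2F word 47 bases before its RefSeq start. E2f3, itself an E2F factor, held an E2F word 11 bases and a CHR 23 bases before its start. Of the 37 promoters 2 held both kinds, E2f3 and Cdk1 (5.41% against 0.405% of all).

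Promoters of mitosis genes are shown in the same way, for their CHR and CCAAT letters, together with Mcm2, the helicase gene with the largest mutant to WT ratio given further on:
Cdk1: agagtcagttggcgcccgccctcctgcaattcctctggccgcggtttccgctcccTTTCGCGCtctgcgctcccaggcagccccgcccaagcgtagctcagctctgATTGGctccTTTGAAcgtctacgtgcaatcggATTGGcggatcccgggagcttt
Ccnb2: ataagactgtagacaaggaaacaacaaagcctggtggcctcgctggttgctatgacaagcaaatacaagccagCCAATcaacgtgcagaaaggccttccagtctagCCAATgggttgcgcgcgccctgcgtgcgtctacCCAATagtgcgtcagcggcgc
Cdc20: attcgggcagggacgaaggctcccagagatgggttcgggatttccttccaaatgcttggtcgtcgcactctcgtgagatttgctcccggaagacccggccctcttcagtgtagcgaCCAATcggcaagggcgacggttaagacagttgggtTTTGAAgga
Mki67: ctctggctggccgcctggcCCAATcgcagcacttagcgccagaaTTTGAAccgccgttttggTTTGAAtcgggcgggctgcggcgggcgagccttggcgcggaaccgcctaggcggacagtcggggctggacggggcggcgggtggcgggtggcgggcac
Mcm2: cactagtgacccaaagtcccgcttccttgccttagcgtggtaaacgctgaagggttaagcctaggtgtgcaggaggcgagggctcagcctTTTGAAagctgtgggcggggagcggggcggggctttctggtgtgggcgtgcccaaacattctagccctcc
They lie on the minus strand at chr10:69352939-69353098, chr9:70421555-70421714, chr4:118437353-118437512, chr7:135716380-135716539 and chr6:88898781-88898940. Ccnb2 held CCAAT 3 times in 1 orientation, 87, 54 and 21 bases before the start. Its CHR words, 167 bases before the start and just past it, lie outside the printed bases. Cdk1 held a CCAAT pair 80 and 48 bases before its start, with a CHR 71 bases before. Another CHR of Cdk1, 15 bases before, and another CCAAT of Cdc20, 8 bases before, are also outside the printed bases. Pairs of CCAAT letters whose starts were 31 to 35 bases apart on 1 strand were counted after this spacing had been seen in the sequences. They stood in Ccnb1, Ccnb2, Cdk1 and Aurka, 4 of the 37 members (10.8%), all of them genes of mitotic entry, and in 1.85% of all promoters. Outside the members they stood in 8 of 73 pathway genes (11.0%), namely 5 of 32 mitosis genes, 2 of 30 replication genes and 1 of 11 regulators, so the pair is not particular to mitotic entry.

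**Figure D1:**
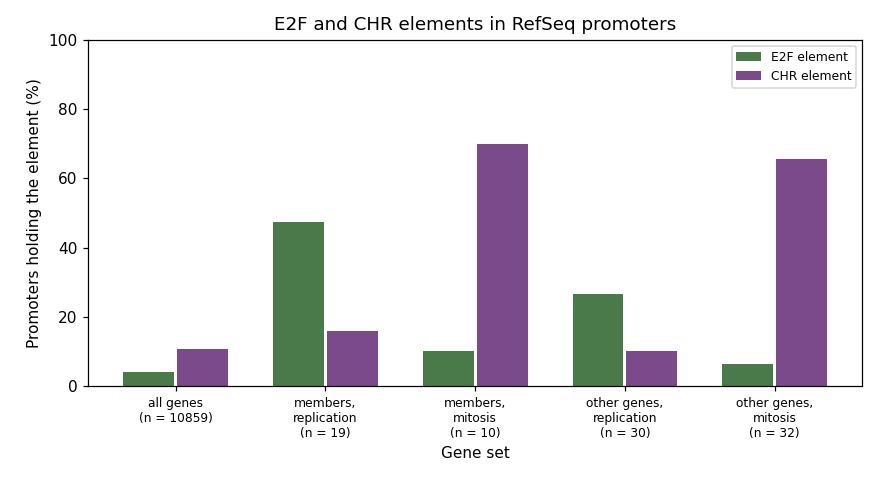
Share of RefSeq promoters (vertical axis, percent, from 0) that hold an E2F word or a CHR word, for all genes and for replication and mitosis genes among the members and in the other pathway list, with the number of promoters under each pair of bars. Replication sets stand higher for E2F words and mitosis sets higher for the CHR, at 47.4% and 70.0% in the members against 4.16% and 10.8% in all genes.

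Most letters of any kind lay inside the open regions, since the 300 bases searched surround the start and the members' WT promoter peaks had a median width of 890.5 bases. Of 19 E2F matches in members 18 lay within the WT promoter peak (94.7%, all promoters 92.2%), as did 14 of 15 CHR (93.3%, all 67.0%), 45 of 47 CCAAT (95.7%, all 89.01%) and 58 of 58 GC box matches (all 92.3%). Median distance from the peak summit, the position of most tags, was 29 bases for CCAAT boxes, 95.5 bases for CHRs and 106.5 bases for E2F words, against 63, 167 and 106.5 bases over all promoters. Promoter peaks with an E2F word had a median WT pileup of 66.5 (14 members) and those without 63 (23 members), against 59 and 54 in all genes with and without one. Pileup is the number of overlapping extended tags at the summit, as the authors' peak caller gave it. The median log2 ratio of mutant to WT was 0.01 in members with an E2F word and 0.06 in those without. Over all genes the order was the opposite, at 0.07 with and 0.05 without one. For the CHR it was 0.04 and 0.05 in members with and without one, against 0.06 and 0.05 in all genes.

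All 44 members had a promoter peak in every list, where a promoter peak has its summit within 1 kb of a start site of a protein-coding transcript and the highest is used. Over all protein-coding genes this held for 68.1% in WT, 66.0% in het and 69.0% in mutant. WT and mutant promoter peaks overlapped in each of the 44, and a het peak overlapped as well. Among all genes with a promoter peak in WT and mutant, these overlapped in 14067 of 14594. The members' peaks also ranked high. The within-list rank is the percentage of peaks in a list whose -log10 q, the peak caller's measure of confidence, is no larger. For the members its median was 95.6 (WT), 94.8 (het) and 96.4 (mutant), compared with 91.3, 89.02 and 92.5 for the promoter peaks of all genes. A rank of 90 or more was reached by 35 members in WT (79.5%, all genes 54.2%), 31 in het (70.5%, all genes 47.2%) and 40 in mutant (90.9%, all genes 58.1%).

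**Figure D2:**
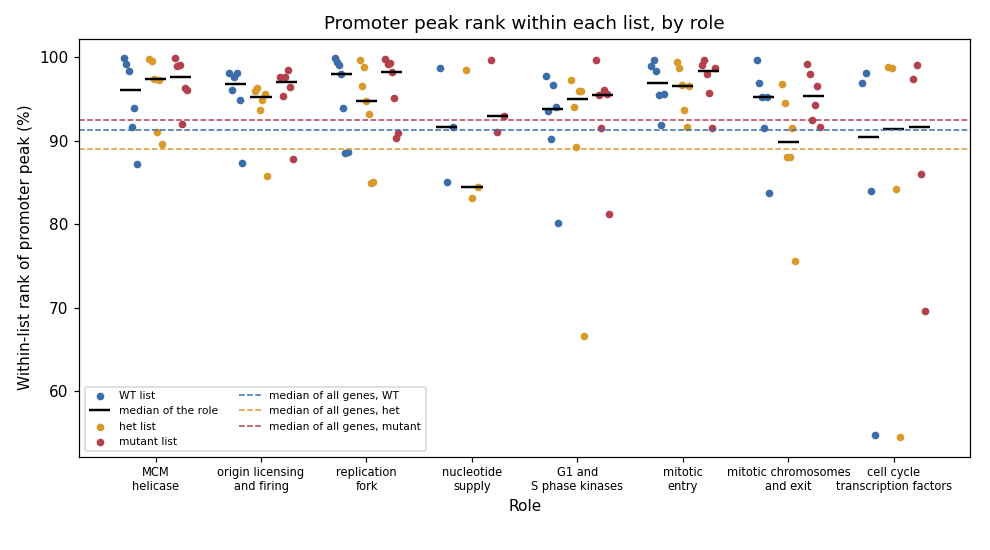
Within-list rank of the promoter peak (vertical axis, percent of the list at or below its -log10 q) for each member, by role, in the WT, het and mutant lists, with a bar at the median of each role and dashed lines at the medians of all genes. E2f2 stands lowest in each list, at 54.7, 54.4 and 69.6, and the genes of mitotic entry stand above 90.

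Sequencing depth and calling settings limit which lists can be set side by side. After filtering, 50394313 tags were left in WT, 51030229 in mutant and 30923002 in het. Tags had been extended to 90 bases in WT, 88 in mutant and 200 in het, and the het list came from another aligner and shift, so pileup was compared between WT and mutant only, per 1000000 tags, and het by presence and rank. Het pileups are printed in parentheses as deposited, and they are on a scale of their own, and coordinates given with them are those of the WT peak. Tags were 107 bases long in WT and 76 in mutant. Bulk libraries cannot tell apart a change in the number of dividing cells and a change in accessibility per cell. As a check of the labelled cells, 6 of 7 granule lineage markers, among them Atoh1, Pax6 and Neurod1, had a promoter peak in WT (all 7 in mutant), with ranks of 75.3 to 92.4 in WT, 52.0 to 93.1 in het and 6.12 to 93.8 in mutant, where Zic2 was lowest. Markers of other cell types (Purkinje cells, glia, microglia, endothelium and interneurons) had one in 11 of 17 genes in WT and mutant and 10 in het, at median ranks of 64.0 (WT), 52.1 (het) and 60.3 (mutant), while Gfap, Sox10, Cx3cr1, Aif1, Pecam1 and Pcp2 had none in any list. For comparison, 68.1% of all protein-coding genes had a promoter peak in WT, at a median rank of 91.3. The granule markers' median WT rank was 85.0, so both groups of markers ranked below all genes and the check is weak. The Purkinje marker Calb1 lay in the range of the granule markers, at ranks of 89.1 (WT), 92.8 (het) and 90.1 (mutant). The microglial marker P2ry12 had 13 tags in WT and 28 in mutant, a ratio of 2.13, with ranks of 30.6 (WT), 55.1 (het) and 77.6 (mutant). What part other cells have in the members' values was not tested. No member lies on a sex chromosome.

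Mutant and WT promoter heights were then compared member by member. None of the 44 passed 1.5-fold in either direction, where 1.12% of 14067 promoters passed it upward and 0.398% downward. The median log2 ratio was 0.05 in the members and 0.05 in all genes. Scaled to tags, 31 members had a ratio above 1 and 13 below it (all genes 63.5% above), whereas scaled to the median of all shared peaks, which takes 0.08 off each log2 ratio, 17 were above and 27 below (all genes 43.6% above), so no direction is given for the members or a role as a whole. The ratios scaled to tags, used throughout, ran from 0.87-fold in Birc5 to 1.38-fold in Mcm2. No member's 95% counting interval left out 1, which it did in 0.242% of all promoters. At the members' median WT pileup of 66, a mutant pileup of 93, or 1.39-fold, would have been needed for that. Most promoters of like height differed less. For 5548 promoters with a WT pileup of 50 to 76, the 5th to 95th percentile of log2 ratios was -0.18 to 0.26. Of the members at such pileups, Mcm2 and Cdc25a lay above these log2 bounds and Birc5 below. The exact counting intervals are wide beside this scatter. They cover counting error only, since tags that are PCR copies or shared by neighbours are not independent molecules. Summed over the 44 promoters the ratio was 1.04 (0.991 to 1.10), and over all genes it was 1.04.

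**Figure D3:**
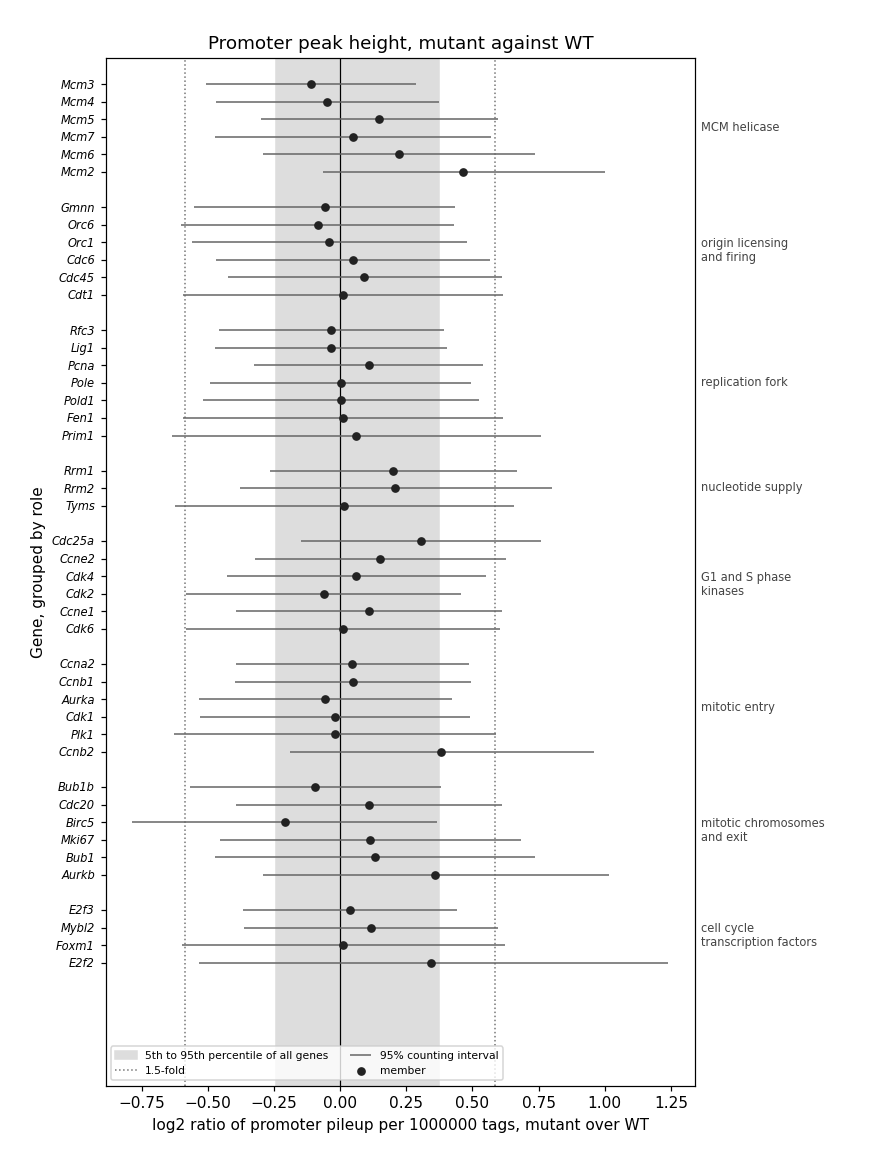
Log2 ratio of promoter pileup per 1000000 tags, mutant over WT (horizontal axis), for each member by role, with exact 95% counting intervals as lines, the 5th to 95th percentile of all genes shaded (-0.24 to 0.37) and 1.5-fold dotted. Every interval crosses 0. Mcm2, at 0.46, and Ccnb2, at 0.38, lie past the shaded range, which by definition leaves out some genes on either side.

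The MCM helicase genes held the tallest promoter peak of all members. Mcm3 had a pileup of 113 in WT and 106 in mutant (het 164, chr1:20819916-20820567), and its peak was number 13 of the WT list by -log10 q. Its ratio of mutant to WT was 0.93 (0.704 to 1.22). Mcm4 had pileups of 98 in WT and 96 in mutant, and its start lies back to back with that of Prkdc, a DNA repair kinase, inside 1 peak of 1104 bases. Mcm5 had 82 and 92, Mcm7 63 and 66, and Mcm6 61 and 72. Lowest was Mcm2 (chr6:88898364-88898942), with 53 in WT and 74 in mutant (het 90). Its ratio of 1.38 (0.956 to 2.001) was the largest among the 44, its rank went from 87.2 in WT to 96.1 in mutant with 89.6 in het, and the counting interval reached 1. The neighbouring promoter of Tpra1, 3.43 kb upstream, had 70 tags in WT and 75 in mutant, a ratio of 1.06.

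Genes that load and start the helicase stood close together. Gmnn, which encodes the inhibitor of Cdt1, had the highest promoter peak of this role with 73 tags in WT and 71 in mutant (het 101, chr13:24761224-24762120). Orc6 had 67 and 64 tags in WT and mutant, Orc1 65 and 64, Cdc6 64 and 67, and Cdc45, a helicase partner, 63 and 68. Cdt1, the loading factor, was lowest with 48 in WT and 49 in mutant (het 70, chr8:122567445-122568403). All 6 ratios fell between 0.94 and 1.07. Their median log2 ratio was -0.01, with 3 members above 0 and 3 below, and with the scaling to shared peaks 1 was above and 5 below.

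At the replication fork, Rfc3, a subunit of the loader of the Pcna clamp, had 96 tags in WT and 95 in mutant (het 148, chr5:151650707-151651445), with a rank of 99.9 in WT. Lig1, the ligase that joins Okazaki fragments, had 90 in WT and 89 in mutant, and Pcna 88 and 96. The polymerase subunit genes Pole and Pold1 had 71 and 64 in WT and 72 and 65 in mutant. Fen1, the flap nuclease, had 48 and 49. Prim1, the primase, was lowest with 36 in WT and 38 in mutant (het 50, chr10:128014943-128015538). Across the 7 genes the ratio stayed between 0.98 and 1.08, a spread of 0.05 (SD of log2 ratios) compared with 0.14 for all 44.

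Among the 3 suppliers of DNA precursors, the ribonucleotide reductase genes had ratios above 1 under either scaling, and that of Tyms lay above 1 scaled to tags and below it scaled to shared peaks. Rrm1, the large subunit of ribonucleotide reductase, had 74 tags in WT and 86 in mutant (het 118, chr7:102441537-102442406), a ratio of 1.15 (0.831 to 1.59). Rrm2, the small subunit, had 47 and 55, a ratio of 1.16 (0.769 to 1.74). Tyms, thymidylate synthase, was lowest with 43 in WT and 44 in mutant (het 49), a ratio of 1.01. The intervals of all 3 contain 1.

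**Figure D4:**
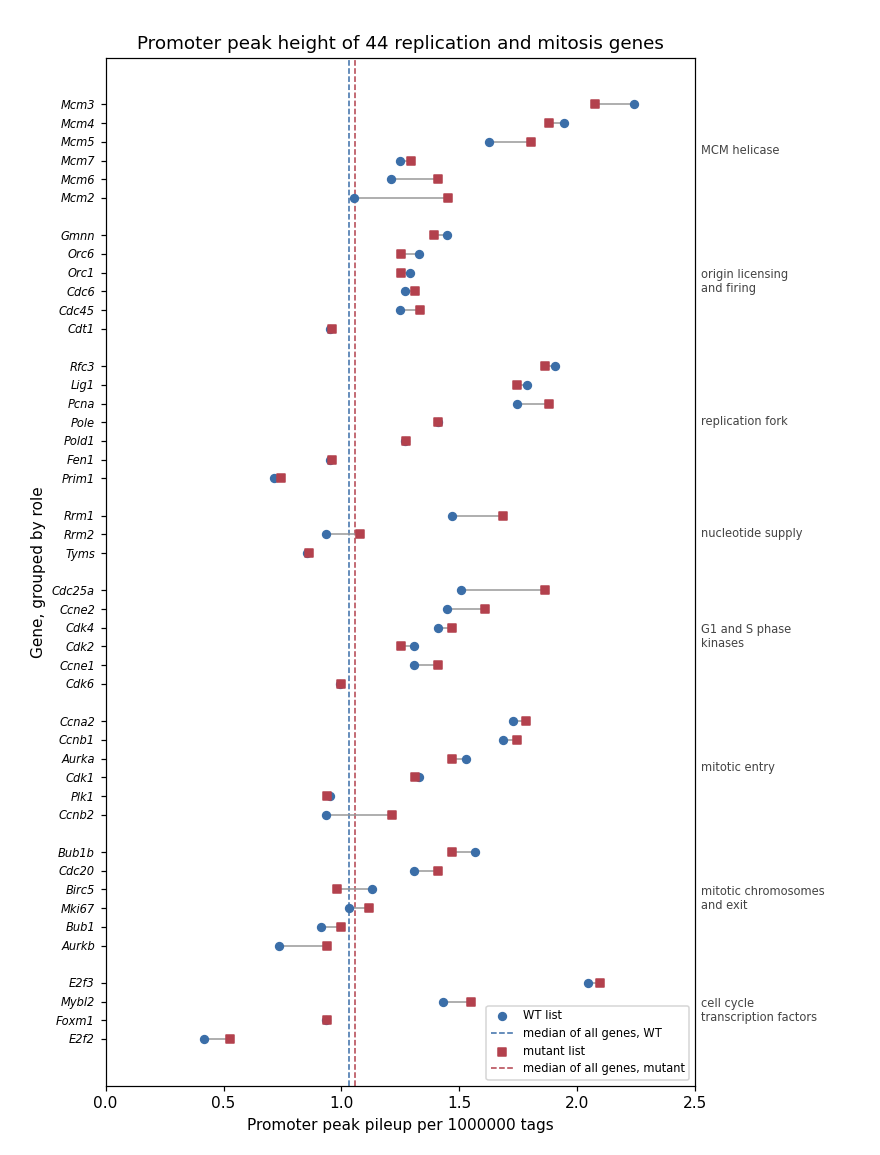
Promoter peak pileup per 1000000 tags (horizontal axis, from 0) of the 44 members by role, with circles for WT, squares for mutant and a line between them, and dashed lines at the median of all genes in each list. Most members lie to the right of the dashed lines, with Mcm3 highest in WT at 2.24 and E2f2 lowest at 0.417.

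Among the kinases of G1 and S phase and their partners, Cdc25a, the phosphatase that activates Cdk2, had 76 tags in WT and 95 in mutant (het 119, chr9:109875228-109876403). Its ratio was 1.23 (0.903 to 1.69). The cyclin E genes Ccne2 and Ccne1 had 73 and 66 in WT and 82 and 72 in mutant, Cdk4 had 71 and 75, and Cdk2 66 and 64. Cdk6, a partner of D cyclins, was lowest with 50 in WT and 51 in mutant (het 52). Its het rank of 66.6 stood below its ranks of 80.1 in WT and 81.2 in mutant. The Cdk6 promoter peak was also the widest of the 44 in WT, at 2073 bases against a median of 890.5 for the members.

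Genes of mitotic entry had ranks above 90 in each list. Ccna2, cyclin A, had 87 tags in WT and 91 in mutant (het 157, chr3:36571536-36572583), and Ccnb1, cyclin B1, had 85 and 89 in WT and mutant. Aurka, which matures centrosomes, had 77 and 75, Cdk1, the mitotic kinase, 67 and 67, and Plk1, the Polo kinase, 48 and 48. Ccnb2, cyclin B2, was lowest with 47 in WT and 62 in mutant (het 86, chr9:70421282-70421790). Its ratio was 1.30 (0.877 to 1.95) and its rank 95.6 in WT, 96.5 in het and 98.8 in mutant.

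Genes of mitotic chromosomes and exit held both the lowest ratio and one of the largest. Bub1b, of the spindle checkpoint, was highest with 79 tags in WT and 75 in mutant (het 98, chr2:118598010-118598515). Cdc20, the activator of the anaphase-promoting complex, had 66 and 72, Mki67, the Ki-67 proliferation antigen, 52 and 57, and Bub1, a checkpoint kinase, 46 and 51. Birc5, survivin, had 57 in WT and 50 in mutant (het 63, chr11:117848605-117849546), a ratio of 0.87 (0.580 to 1.29). Lowest was Aurkb, the kinase of the chromosomal passenger complex that survivin belongs to, with 37 in WT and 48 in mutant (het 44, chr11:69045526-69046050), a ratio of 1.28 (0.817 to 2.02). These 2 genes of the complex had ratios on either side of 1 under both scalings, with intervals that hold 1.

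The cell cycle transcription factors spanned the range of heights. E2f3 had 103 tags in WT and 107 in mutant (het 192, chr13:29985937-29986741), and its het value was the tallest of the 44 within that list. Mybl2, of the MuvB complexes, had 72 in WT and 79 in mutant, and Foxm1, the forkhead factor of G2, 47 and 48. E2f2 was the lowest of all members with 21 in WT and 27 in mutant (het 30, chr4:136172530-136173131), a ratio of 1.27 (0.691 to 2.36). Its summit lay 331 bases past the nearest start, and a further promoter peak of similar height, 19 tags in WT and 24 in mutant, lay 0.26 kb before the gene. The ratios of E2f2 and Mybl2 were above 1 under either scaling, and those of E2f3 and Foxm1 scaled to tags alone.

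The position of the open region was also shared by most members. The WT summit lay within 150 bases of a start site in 40 of 44 (90.9%, all genes 71.2%), with E2f2, Cdk6, Foxm1 and Cdk4 as the others. The share was 85.9% in the other pathway genes and 77.8% in genes with a WT pileup of 50 to 76. In 11 of 44 (25%) the WT promoter peak also held the start of a coding gene on the opposite strand. This held for 14.2% of all genes, 20.2% of the other pathway genes and 19.0% of genes at that WT pileup. In these 11 members the height cannot be given to either gene of the pair alone. These pairs were Mcm4 with Prkdc, Mcm7 with Ap4m1, Orc1 with Prpf38a, Orc6 with Vps35, Cdc45 with Ufd1, Pole with Pxmp2, Fen1 with Tmem258, Lig1 with Zswim9, Cdk2 with Pmel, Aurka with Cstf1 and Foxm1 with Rhno1. No gene of nucleotide supply or of mitotic chromosomes and exit was paired. The 37 member promoters with a sequence were less GC-rich than all promoters, at a median of 57.7% against 61.7%. The other pathway genes did not share this, with a median of 63.3% over 73 promoters.

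Outside their promoters the members had a median of 1 WT peak per gene, as did all protein-coding genes. Per 10 kb of window the median was 0.212 in the members and 0.335 in all genes. Of the 119 WT peaks in their windows 53 were promoter peaks, 6 lay at the start of another gene, and 60 lay elsewhere, 40 in introns, 11 in exons, 6 upstream and 3 downstream. The 60 were weak, with a median rank of 44.5 and a median pileup of 16, which is also the median pileup of all WT peaks. In 21 of 44 members (47.7%, all genes 40.5%) no WT peak lay outside the promoter. Of the 66 peaks outside the promoter, starts of other genes included, Cdk6 held the most, 25 in a window of 195.5 kb, followed by E2f3 with 7, E2f2 with 4 and Mcm2 with 3. A further 8 members had 2 each, namely Cdc25a, Rrm2, Aurkb, Bub1b, Pold1, Cdc45, Mki67 and Foxm1.

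Inside Cdk6, 2 intronic peaks were taller than the promoter. At 53.6 kb from the gene start (chr5:3394990-3395432) the pileup was 69 in WT and 59 in mutant, a ratio of 0.84 (0.586 to 1.21). At 63.7 kb (chr5:3404813-3405647) it was 69 in WT and 74 in mutant, a ratio of 1.06 (0.753 to 1.49), and both had a het peak. Their WT ranks were 97.2 and 97.3, compared with 80.1 for the promoter. The 200 bases around each WT summit are shown on the plus strand, as the tallest open regions of any member outside promoters, with the 20 bases at the summit in capitals:
Cdk6 intron at 53.6 kb: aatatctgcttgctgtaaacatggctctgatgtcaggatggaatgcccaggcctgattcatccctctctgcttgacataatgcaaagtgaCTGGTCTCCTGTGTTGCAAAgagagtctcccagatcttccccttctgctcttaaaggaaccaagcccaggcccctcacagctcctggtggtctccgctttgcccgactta
Cdk6 intron at 63.7 kb: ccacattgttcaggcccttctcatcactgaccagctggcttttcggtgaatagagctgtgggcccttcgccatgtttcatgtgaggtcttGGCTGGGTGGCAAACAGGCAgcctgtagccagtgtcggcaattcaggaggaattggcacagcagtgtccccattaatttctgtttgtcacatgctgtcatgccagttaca
They lie at chr5:3395027-3395226 and chr5:3405122-3405321. Another intronic peak of Cdk6, at 175.45 kb, had 42 tags in WT and 49 in mutant (1.15, 0.747 to 1.78). The 7 peaks of E2f3 outside its promoters had 9 to 14 tags in WT, and 4 of them had no mutant peak.

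**Figure D5:**
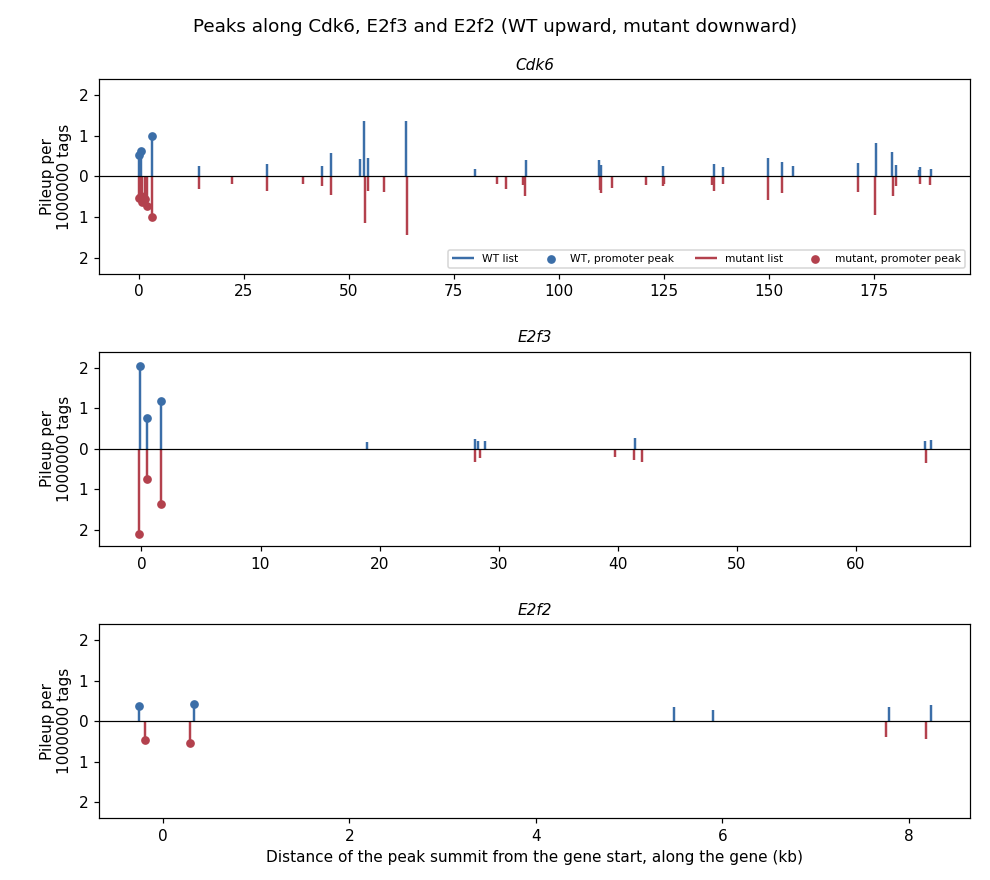
Peaks along Cdk6, E2f3 and E2f2, placed by the distance of the summit from the gene start (horizontal axis, kb) with pileup per 1000000 tags (vertical axis) drawn upward for WT and downward for mutant, and dots on promoter peaks. In Cdk6 the intronic peaks at 53.6 and 63.7 kb exceed the promoter in both lists, whereas in E2f3 the promoter peaks exceed all others.

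Peaks present in only 1 list were next counted. In WT 14 of the members' 119 peaks were without overlap in the mutant list (11.8%, Wilson 95% interval 7.14 to 18.8%), against 22.8% of the whole WT list. In mutant 30 of their 143 peaks were without overlap in the WT list (21.0%, 15.1 to 28.4%), against 30.7% of the whole mutant list. Promoter peaks make up much of the members' peaks. All 53 WT promoter peaks had a mutant peak, and 3 of 64 mutant promoter peaks, each beside a taller one, had no WT peak. Among all genes with a promoter peak in both lists, the highest ones overlapped in 14067 of 14594. Genes with a promoter peak in 1 list alone are left out of that number. The unshared share over all promoter peaks was not counted, so these counts have no matched background. Away from promoters 14 of 60 were unshared in WT (23.3%, 14.4 to 35.4%) and 25 of 72 in mutant (34.7%, 24.8 to 46.2%). Both intervals hold the value of the whole list. That value includes promoter peaks, and the share over all peaks away from promoters was not counted.

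Where -log10 q was at least 5, 2 of 88 in WT were unshared (2.27%, whole list 5.78%) and 10 of 104 in mutant (9.62%, whole list 11.2%). Of promoter peaks at this threshold, 0 of 50 were unshared in WT and 1 of 56 in mutant. The share over all genes' promoter peaks at this threshold was not counted. Away from promoters it was 2 of 33 in WT (6.06%, 1.68 to 19.6%) and 9 of 44 in mutant (20.5%, 11.2 to 34.5%). The whole lists hold promoter peaks too, so these last shares have no matched background. Both unshared WT peaks were small. In an exon of Pole, 22.8 kb into the gene (chr5:110309009-110309148), 15 tags were stacked in WT, and the het and mutant lists had no peak there. In Cdk6 a peak of 22 tags at 52.8 kb (chr5:3394173-3394359) was in WT and het. The 10 mutant peaks lay in Cdk6, which held 2, and in Mcm2, Cdc6, Lig1, Ccnb1, Aurka, Aurkb, Bub1b and E2f3. They had 12 to 27 tags. Strongest was that upstream of Aurkb, 3.86 kb before its start (chr11:69041726-69041831), with 27 tags and a rank of 61.8 in the mutant list, and the peak of Mcm2 in an intron at 4.99 kb had 21. Only the peak in E2f3 had a het counterpart.

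Shared peaks of the members away from promoters had ratios near those of such peaks in the whole lists. The median log2 ratio of 46 such peaks was 0.10, against 0.08 over 100359 shared WT peaks away from coding starts. Of the 46, 5 had a ratio past 1.5-fold upward and 2 downward, where 13.2% of all such peaks passed it in either direction, and no interval left out 1. The upward peaks lay near Mcm6, Cdc6, Aurkb, Bub1b and E2f3, with 10 to 20 tags in WT and 18 to 31 in mutant. The downward ones lay in an intron of Rfc3, with 15 and 10 tags, and 14.5 kb from the start of Aurka, just past its end (chr2:172355739-172356229), with 48 and 31. The ratio at Aurka was 0.64 (0.392 to 1.02), the lowest of any shared peak in the members' windows.

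The other genes of the pathway, 99 in a fixed list, gave values close to those of the members. All 99 had a promoter peak in WT and in mutant, and 98 had one in het, where Tk1, thymidine kinase, lacked it (24 tags in WT and 26 in mutant). Their median rank was 97.0 in WT, 95.3 in het and 97.6 in mutant. None of the 98 with overlapping promoter peaks passed 1.5-fold, and no interval left out 1. Their median log2 ratio was 0.04, with 64 above and 34 below 0 when scaled to tags. By role it was 0.02 for 40 replication genes, 0.08 for 40 mitosis genes and 0.03 for 18 regulators such as D cyclins, E2Fs and the Rb family. The extremes were Rbl1, the p107 pocket protein, at 0.83 (0.503 to 1.37) and Rfc5, a clamp loader subunit, at 1.28 (0.905 to 1.83).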

How the data were processed

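ATAC-seq of GNPs at postnatal day 7 was analysed from 3 peak lists (WT 3, het 2 and mutant 3 libraries). For each genotype the authors ran MACS2 on pooled libraries, with no control and a cutoff on q of 0.05, per the file headers. Reads of het came from bowtie, with a shift of -100 bases, and those of WT and mutant from files named for STAR, without a shift. The study's methods give bowtie and the shift for all groups, so the headers and the methods differ for WT and mutant. The submitters' processing notes name MACS2 2.1.0.20150731, Bowtie 1.0.0 and STAR 2.5.0b. The pileup signal deposited by the authors counts whole extended tags over each summit. The deposited fold enrichment is the ratio of pileup to local background, used here as an alternative. The deposited -log10 q was used for ranks and thresholds. All columns are pooled by genotype and 0 were left unmapped.

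Peaks were assigned to protein-coding genes of GENCODE M21 on mm10, the build of the lists. A promoter peak had its summit within 1000 bases of a start, and peaks sharing 1 base counted as shared. Ratios of mutant to WT pileup were scaled to tags after filtering, with Clopper-Pearson intervals, and shares have Wilson intervals (95%). Past 1.5-fold counted as called. The 44 members, 99 pathway genes and 25 markers (1 not matched) were chosen with earlier results of these data known. Named in each role were the genes with the highest and the lowest WT pileup, those with the most peaks outside promoters and those with unshared peaks of -log10 q 5 or more. The alternatives tried were summits within 500 bases, -log10 q of 5 or more, ranks by pileup, fold enrichment, scaling to shared peaks, 50% reciprocal overlap, a distance of 300 bases and gene bodies alone. Scripts were tested on simulated lists. Promoter sequences were from RefSeq (GRCm38.p6), and the 10 printed promoters were identical to the genome at their coordinates. Calculations used python 3.11.15, pandas 2.3.3 and scipy 1.17.1.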

Additional observations from a re-analysis of the deposited data

How the results depend on the processing

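No paired analysis was possible because the libraries of a genotype had been pooled when peaks were called, which also means that no replicate could be left out. All 44 members kept a promoter peak in each list, and 0 passed 1.5-fold, under every alternative run for these results. Ranking by pileup moved the median promoter rank of the members to 96.5 in WT, 95.1 in het and 97.1 in mutant. Scaling to the median of all shared peaks, 0.08 on the log2 scale, turned the members' median log2 ratio from 0.05 to -0.028 and that of all genes from 0.05 to -0.023. With a 50% reciprocal overlap 20.2% of the members' WT peaks were unshared (whole list 35.9%) and 33.6% of their mutant peaks (whole list 43.8%). Of the members' peaks whose -log10 q was at least 5 it was 2.27% (whole list 5.78%) and 9.62% (whole list 11.2%). That threshold left 33 of the 60 WT peaks away from promoters. The other 28 comparisons of a summary over the members with an alternative moved it by no more than its counting interval. For single members and for the whole lists the same held in 179 comparisons, and 19, which are values over all genes or whole lists, moved further. For single members this says little. Summits within 500 bases and -log10 q of 5 or more left their ratios unchanged, and scaling shifted each by the same 0.08. A change of sign within the interval also counted as no move, as in Mcm7 (log2 ratio 0.05 by pileup and -0.06 by fold enrichment). At a typical member promoter the counting interval leaves out 1 upward only from about 1.39-fold, and the spread between mice was not measured.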
